A study of Homo sapiens with 6 samples.

Results

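The genes described here encode the SR proteins and the heterogeneous nuclear ribonucleoproteins (hnRNPs). They were taken from a table of gene counts as the rows whose symbol is SRSF or HNRNP followed by the family letter or number, without the 12 names of processed pseudogenes. The rule found 31 genes of the 16199 in the table. They are 12 SR protein genes (SRSF1 to SRSF12) and 19 hnRNP genes (HNRNPA0, A1, A1L3, A2B1, A3, AB, C, D, DL, F, H1, H2, H3, K, LL, M, U, UL1 and UL2). HNRNPL and HNRNPR were not analysed here.

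H1, a widely used human embryonic stem cell line, was studied in 3 Dicer genotypes with 2 libraries each. Dicer, an RNase III enzyme, cuts hairpin precursors into microRNAs. The groups were wild-type cells, cells hemizygous for the S1344L substitution (pm/fs in the labels) and cells homozygous for it (pm/pm). The mutants were engineered with CRISPR-Cas9, and how many clones each genotype stands for is not given in the sources used here. All cells, controls included, had been kept for 10 days without doxycycline, whose target is not named in the labels. Cells were crosslinked with ultraviolet light (254 nm, 150 mJ/cm2, given 2 times), and RNA was pulled down with an antibody against Ago2, the Argonaute protein that carries microRNAs to their targets. The assay, iCLIP, recovers RNA crosslinked to a protein. A count therefore reflects both how much of a transcript the cells held and how much of it came down with Ago2, and these cannot be told apart here.

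SR proteins carry RNA recognition motifs and a tail rich in arginine-serine repeats. They bind exonic enhancers, recruit the spliceosome, and several shuttle to the cytoplasm with the mRNA. hnRNPs coat nascent transcripts and often oppose SR proteins at splice sites, and many also act in mRNA export, stability and translation. Many genes of both families carry ultraconserved poison exons or retained introns through which the proteins limit their own mRNA.

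All 31 genes were well covered. Their lowest count in a library was 365, for SRSF12, and the highest was 128935, for HNRNPA1. All 31 passed the filter on low counts. For 7 of them another gene of the table shares part of the locus, so that some reads may belong to it: SRSF2 (MFSD11), SRSF4 (MECR), SRSF9 (GATC), SRSF12 (PM20D2), HNRNPAB (PHYKPL), HNRNPH3 (PBLD and RUFY2) and HNRNPK (RMI1). Totals per library were 38.2 M to 52.9 M counts. Levels are given as CPM, counts scaled to a common library total with TMM factors, and are compared between libraries for a gene, not between genes. The labels do not say whether the pair of libraries of a genotype were grown separately. The p-values therefore measure the spread between libraries, which may be technical. As checks, DICER1 stood at 169 and 126 CPM in wild-type, 118 and 96.4 in hemizygous and 129 and 118 in homozygous libraries, and AGO2 at 218 and 222, 277 and 231, and 268 and 199. Neither passed the test in a genotype comparison.

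RefSeq places a microRNA in or across the edge of 3 of the loci: MIR7-1 in HNRNPK, MIR636 in SRSF2 and MIR4444-1 at the edge of HNRNPA3. MIR7-1, a hairpin that Dicer cuts into miR-7, lies on the same strand as its host. Its mature products are shown, as those of the best-known microRNA of these, because they tie a gene described here to Dicer's own substrates. Sequences are from RefSeq, build GRCh38.p14, minus strand, with the seed (bases 2 to 8) in capitals.
hsa-miR-7-5p, chr9:83969811-83969834: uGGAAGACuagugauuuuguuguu
hsa-miR-7-1-3p, chr9:83969771-83969792: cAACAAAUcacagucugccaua
The hairpin itself was not analysed here, so only its host transcript is described. HNRNPK, which binds poly(C) stretches, gave 1020.0 and 944 CPM in wild-type, 1013 and 969 in hemizygous, and 1201 and 943 in homozygous libraries. The first homozygous library was the highest and the second the lowest of the 6, so the genotypes overlapped.

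No SR protein or hnRNP gene passed the test for a change with the Dicer genotype. In the quasi-likelihood test of edgeR with Benjamini-Hochberg adjustment over all genes, 0 of 31 were called between hemizygous and wild-type cells, between homozygous and wild-type cells, and between the mutants. The background was the same, with 0% of the 16199 genes called in each. DESeq2 and limma-voom also called 0 of the 31 in each comparison, while over all genes DESeq2 called 7, 10 and 10. At an unadjusted p under 0.05, 0, 1 and 0 of the 31 genes passed, against 141, 435 and 124 of all genes. A missed threshold does not show equal levels, so the intervals are given: the 95% interval of the log2 fold change lay inside -1 to 1 for 31, 29 and 29 of the 31 genes, reaching a median of 0.38 to either side of the estimate.

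Differences were smallest between hemizygous and wild-type cells, although the comparisons were not tested against each other. The median log2 fold change over the 31 genes was 0.01, and over all genes it was -0.003. The median size was 0.04 for these genes and 0.09 over all genes, and the whole range was -0.16 to 0.13. Libraries of the hemizygous and wild-type cells did not overlap for 3 of the 31 genes (9.68%), against a background of 17.3% of all genes. HNRNPA3 was higher in both hemizygous libraries, at 831 and 820.0 CPM against 807 and 789. SRSF9 and HNRNPF were lower in both, HNRNPF at 314 and 317 CPM against 335 and 355. HNRNPF, which binds G tracts, had a fitted difference of -0.13 (SE 0.13).

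The other hemizygous differences with the smallest p were also within their error, in the model without replicate number. SRSF6, which regulates tau and other alternative exons, gave 108 and 84.2 CPM in wild-type and 117 and 93.2 in hemizygous libraries, a log2 difference of 0.13 (SE 0.18). SRSF12, a repressor of splicing, gave 11.1 and 9.3 against 11.5 and 10.6 CPM, a difference of 0.11 (SE 0.19). HNRNPA1L3, a gene with a sequence close to HNRNPA1, gave 181 and 196 against 154 and 193 CPM, a difference of -0.12 (SE 0.16). In all of these genes the hemizygous libraries overlapped the wild-type ones. Between libraries of the same number (replicate 1, then 2) the log2 differences were 0.12 and 0.15 for SRSF6 and 0.05 and 0.19 for SRSF12. For HNRNPA1L3 they were -0.22 and -0.03.

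The largest differences from wild-type were in homozygous cells, in the SR proteins SRSF3, SRSF7 and SRSF8. The log2 fold changes of the 31 genes against wild-type ran from -0.52 to 0.34 with a median of 0.03 (all genes, -0.003) and a median size of 0.08 (all genes, 0.14). SR proteins had a median of -0.04 and hnRNPs of 0.05. Libraries did not overlap for 11 of the 31 genes (35.5%), where the background was 27.9% of all genes. The 8 that were higher in both homozygous libraries were SRSF9, SRSF11, HNRNPA1, HNRNPA2B1, HNRNPAB, HNRNPC, HNRNPH1 and HNRNPH3, and the 3 that were lower were SRSF3, SRSF7 and SRSF8.

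**Figure D1:**
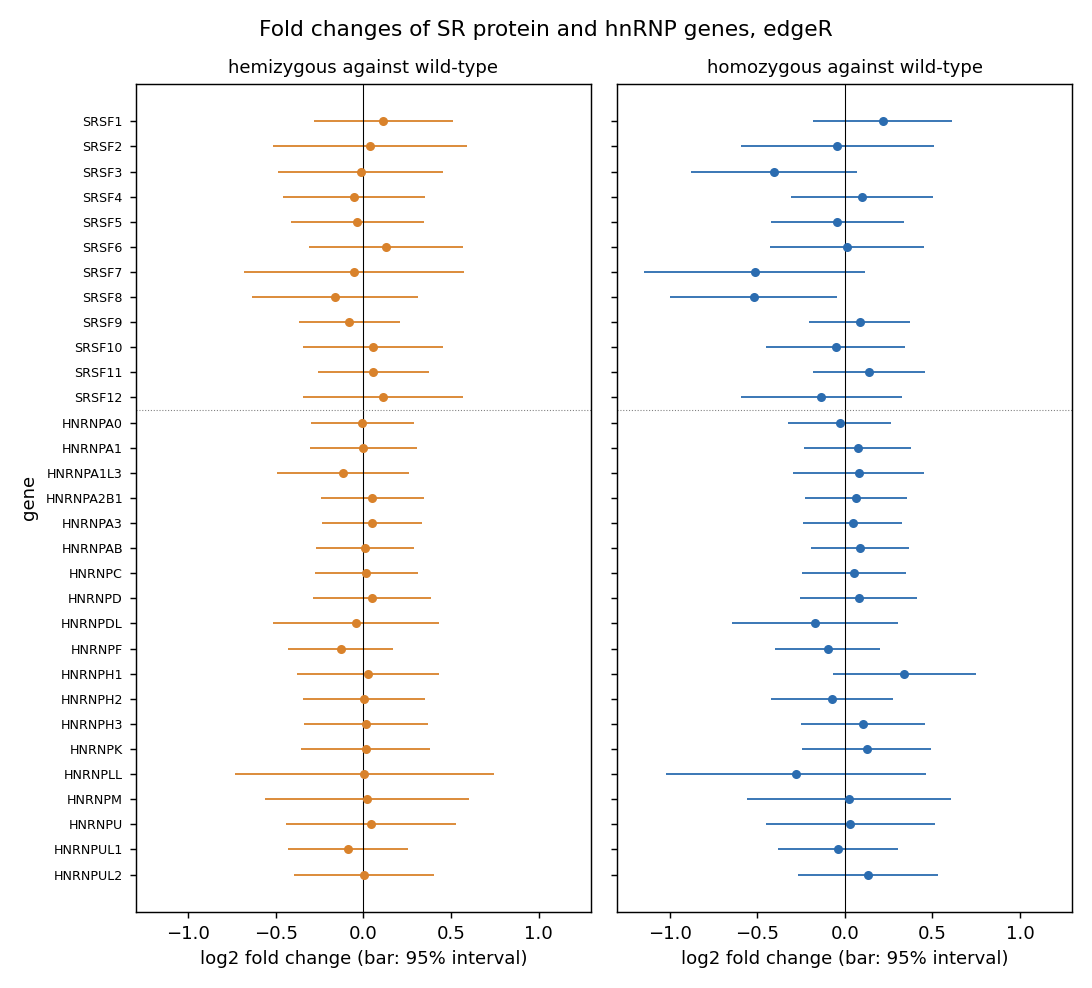
Log2 fold change of each gene in hemizygous (left) and homozygous (right) cells against wild-type, from edgeR over 2 libraries per genotype, with SR proteins above the dotted line and hnRNPs below. Bars are 95% intervals. In hemizygous cells all 31 intervals hold 0, and in homozygous cells 30 do, SRSF8 being the exception.

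SRSF3, the smallest SR protein, promotes mRNA export and restrains its own mRNA through a poison exon. The gene spans chr6:36594362-36605600 (RefSeq, GRCh38.p14, as for all loci here). It gave 459.8 and 401 CPM in wild-type, 471 and 381 in hemizygous and 275 and 377 in homozygous libraries. Both homozygous libraries lay below the other 4, but the first lay much further below than the second. The log2 difference from wild-type was -0.40 (SE 0.20, 95% interval -0.87 to 0.07) and edgeR's adjusted p was 1.00. Without the first homozygous library it was -0.19.

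SRSF7 is the closest relative of SRSF3 in the family and has a zinc knuckle that SRSF3 lacks. Its gene lies at chr2:38743599-38751494. It gave 262 and 189 CPM in wild-type, 251 and 184 in hemizygous and 127 and 188 in homozygous libraries. Only the first homozygous library stood apart, and the second lay just under the second wild-type and above the second hemizygous library. The log2 difference from wild-type was -0.51 (SE 0.26, 95% interval -1.14 to 0.12; edgeR adjusted p 1.00). It was -0.26 without the first homozygous library and -0.25 without the first wild-type library.

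SRSF8, at chr11:95066877-95071225, arose as a retrogene of SRSF2. It gave 20.6 and 15.6 CPM in wild-type, 17.9 and 14.4 in hemizygous and 12.8 and 12.4 in homozygous libraries. Both homozygous libraries were the lowest of the 6 and close to each other. The log2 difference from wild-type was -0.52 (SE 0.20, 95% interval -0.996 to -0.04), with an unadjusted p of 0.0364 and an adjusted p of 1.00 by edgeR. It was -0.54 without the first homozygous library and -0.30 without the first wild-type library. For hemizygous cells the difference was -0.16 (SE 0.20).

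**Figure D2:**
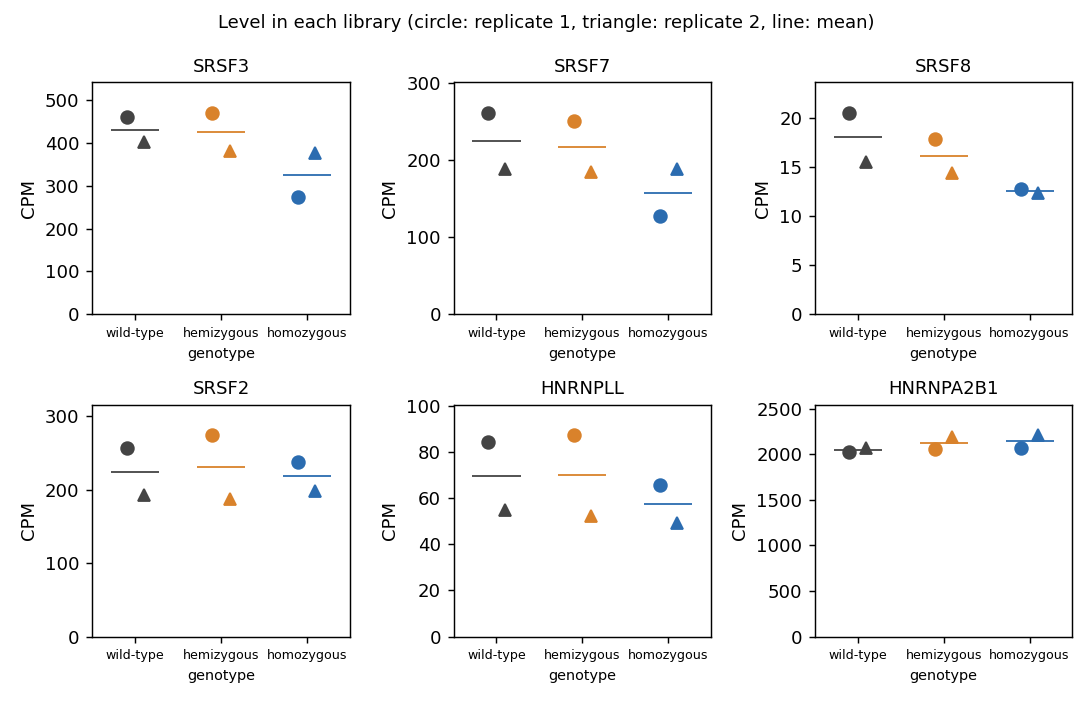
CPM in each library for 6 genes by genotype (circle, replicate 1; triangle, replicate 2; line, mean of both). SRSF3 and SRSF8 are lowest in both homozygous libraries and SRSF7 in the first of them, SRSF2 and HNRNPLL are lower in replicate 2 of every genotype, and HNRNPA2B1 lies between 2026 and 2211 CPM in all 6.

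The promoters of SRSF3 and SRSF7 are shown because these genes had their lowest level in the same library. These are the 200 bases before the first start that RefSeq lists for each gene in GRCh38.p14, 5′ to 3′ on the gene's strand, with matches on either strand to the CCAAT box, to the GC box letters GGGCGG and to the TATA box letters TATAA in capitals. In these windows no match overlaps another.
SRSF3, chr6:36594162-36594361, plus strand: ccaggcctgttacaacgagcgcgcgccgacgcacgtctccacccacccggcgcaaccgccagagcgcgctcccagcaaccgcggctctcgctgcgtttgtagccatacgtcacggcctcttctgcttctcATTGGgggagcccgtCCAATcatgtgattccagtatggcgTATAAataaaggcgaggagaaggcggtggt
SRSF7, chr2:38751495-38751694, minus strand: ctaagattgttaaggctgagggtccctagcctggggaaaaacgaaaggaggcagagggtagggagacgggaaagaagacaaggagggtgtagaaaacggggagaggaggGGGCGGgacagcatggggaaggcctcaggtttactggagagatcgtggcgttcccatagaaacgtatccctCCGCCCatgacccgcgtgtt
The window of SRSF3 held 2 CCAAT matches, 1 TATAA and 0 GGGCGG, and that of SRSF7 held 2 GGGCGG and neither of the other motifs. SRSF7 has a second listed start, and the window before it (chr2:38751362-38751561), which overlaps the first, held 2 GGGCGG and 1 TATAA. In the windows before the first listed start, 12 of the 28 genes with a RefSeq promoter entry (42.9%) held CCAAT, against 28.9% of 27305 promoters. GGGCGG was present in 18 (64.3%, against 39.9%) and TATAA in 4 (14.3%, against 16.0%). Over all listed starts the counts were 15 for CCAAT (53.6%, against 32.7% of genes), 19 for GGGCGG (67.9%, against 43.9%) and 5 for TATAA (17.9%, against 18.5%). These matches are letters in a window and not shown binding sites.

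SRSF1, the prototype SR protein and an oncogene, gave 149.8 and 136 CPM in wild-type, 167 and 142 in hemizygous and 185 and 147 in homozygous libraries. The first library of each genotype was the higher, and the genotypes overlapped. The log2 difference from wild-type was 0.11 (SE 0.17) for hemizygous cells. For homozygous cells it was 0.22 (SE 0.17), and 0.04 without the first homozygous library. SRSF2, which bridges the splice sites and is mutated in myeloid neoplasms, gave 256 and 193, 274 and 188, and 238 and 198 CPM. Its homozygous difference was -0.04 (SE 0.23), with the genotypes fully interleaved.

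SRSF11 gave 330.2 and 349.8 CPM in wild-type, 328 and 379 in hemizygous and 366 and 383 in homozygous libraries. Both homozygous libraries lay above both wild-type ones, with a log2 difference of 0.14 (SE 0.13). SRSF9 gave 178 and 173, 162 and 171, and 182 and 191 CPM. It was lower than wild-type in both hemizygous libraries and higher in both homozygous ones, and the homozygous minus hemizygous difference was 0.17 (SE 0.12), which was not called (edgeR adjusted p 0.999). The 3 SR proteins SRSF4, SRSF5 and SRSF10 showed no separation of genotypes: SRSF4 ranged from 133 to 172 CPM, SRSF5 from 214 to 274 and SRSF10, which acts as a repressor when dephosphorylated, from 201 to 258.

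Among the hnRNPs, HNRNPH1 had the largest difference. Its protein binds G runs near splice sites, and the gene lies at chr5:179614178-179634784. It gave 48.8 and 46.7 CPM in wild-type, 43.4 and 53.9 in hemizygous and 67.1 and 53.6 in homozygous libraries. The first homozygous library was the highest of the 6, and the second lay just under the second hemizygous one. The log2 difference from wild-type was 0.34 (SE 0.17, 95% interval -0.07 to 0.75; edgeR adjusted p 1.00), and it was 0.17 without the first homozygous library. Its relatives varied less: HNRNPH2 ranged from 71.2 to 85.2 CPM, HNRNPH3 from 309 to 386 and HNRNPF from 305 to 355.

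Most hnRNPs of the A/B group varied little between libraries. HNRNPA1, which silences exons and shuttles between nucleus and cytoplasm, gave 2301 and 2301 CPM in wild-type, 2158 and 2447 in hemizygous and 2479 and 2367 in homozygous libraries. Both homozygous libraries exceeded wild-type, by 0.07 on the log2 scale (SE 0.13), and the hemizygous ones lay on either side. HNRNPA2B1, which also binds microRNA precursors and reads m6A marks, gave 2026 and 2067, 2058 and 2185, and 2072 and 2211 CPM. Its homozygous difference was 0.07 (SE 0.12), and the highest library was 1.09 times the lowest. For HNRNPA3 that ratio was 1.07, for HNRNPAB 1.09 and for HNRNPA0 1.10.

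HNRNPA1 has near copies, and reads can be split between them. Counts on HNRNPA1L3 equalled 7.16% to 8.53% of those on HNRNPA1, and counts on the pseudogene HNRNPA1P10 equalled 2.26% to 3.10%. All 12 pseudogenes together equalled 1.18% to 1.46% of the hnRNP counts. The HNRNPA1L3 level is uncertain for that reason. It stood at 211 and 187 CPM in homozygous libraries, 0.20 (SE 0.16) above hemizygous on the log2 scale.

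HNRNPC, the nuclear hnRNP that binds uridine tracts and keeps Alu elements from being spliced as exons, gave 1067 and 1066 CPM in wild-type, 1027 and 1130.3 in hemizygous and 1085 and 1129 in homozygous libraries. Homozygous libraries lay above wild-type by 0.05 (SE 0.12), within the hemizygous range. HNRNPD, also known as AUF1, which binds AU-rich elements, ranged from 613 to 725 CPM. Its paralogue HNRNPDL gave 589 and 442, 559.6 and 440.5, and 421 and 495 CPM. In HNRNPDL the first library was higher in wild-type and hemizygous cells and lower in homozygous cells, the order also seen for SRSF3 and SRSF7.

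HNRNPU, a scaffold attachment protein that organises chromatin, gave 972 and 905 CPM in wild-type, 1103 and 832 in hemizygous and 1105 and 816 in homozygous libraries. The mutant genotypes had a high first and a low second library on either side of wild-type, and the homozygous difference was 0.03 (SE 0.20). HNRNPM had the same layout, at 371 and 357, 424 and 314, and 452 and 288 CPM. The relatives HNRNPUL1 and HNRNPUL2 ranged from 357 to 421 and from 52.9 to 67.3 CPM. HNRNPK differed by 0.13 (SE 0.15) between homozygous and wild-type cells, and by -0.06 without the first homozygous library.

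Between the mutants, the same genes stood at the ends. Over the 31 genes the homozygous minus hemizygous log2 difference ran from -0.46 to 0.31, with a median of 0.01 (all genes, -0.0004). Genotypes did not overlap for 5 of 31 genes (16.1%), where the background was 21.4% of all genes. SRSF9 and HNRNPAB were higher in homozygous cells, and SRSF3, SRSF8 and SRSF12 were lower. The fitted differences were -0.39 (SE 0.20) for SRSF3, -0.36 (SE 0.20) for SRSF8, -0.46 (SE 0.26) for SRSF7 and 0.31 (SE 0.17) for HNRNPH1. This comparison and the homozygous against wild-type one share the homozygous libraries, so they are not separate evidence.

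**Figure D3:**
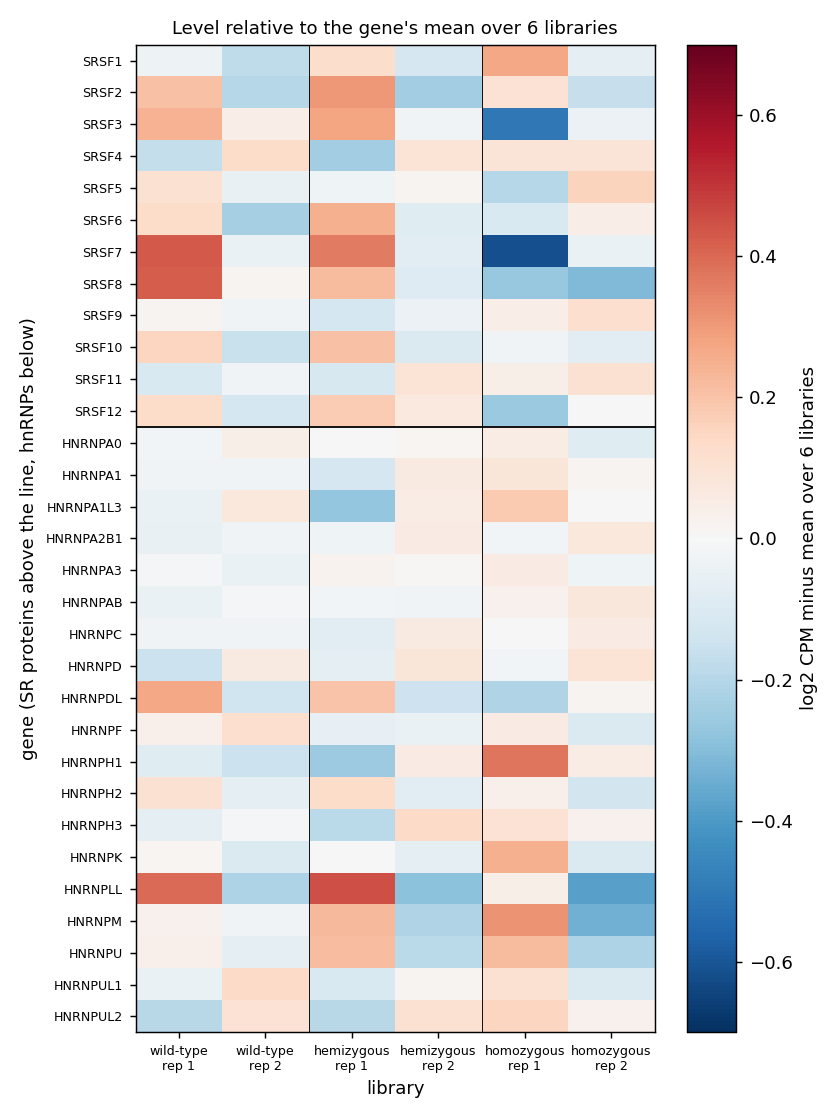
Log2 CPM of each gene in each library minus the gene's mean over the 6 libraries, red above and blue below. The deepest blue is SRSF7 and SRSF3 in homozygous replicate 1, the library that is highest for 10 of the 31 genes, HNRNPH1, HNRNPM and HNRNPK among them.

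The summed share of counts ran from 0.205% to 0.238% for SR protein genes and from 1.16% to 1.26% for hnRNP genes. SR protein genes held 0.238% and 0.221% of all counts in wild-type, 0.235% and 0.224% in hemizygous and 0.205% and 0.232% in homozygous libraries. The first homozygous library was the lowest. hnRNP genes held 1.18% and 1.23%, 1.16% and 1.25%, and 1.26% and 1.24%. Both homozygous libraries lay above both wild-type ones, and the hemizygous pair spanned nearly the whole range. The hnRNP share averaged 1.21% ± 0.0313 (SD, n = 2) in wild-type cells. In homozygous cells it averaged 1.25% ± 0.0157 (SD, n = 2), and a two-sided exact permutation test gave p = 0.333, the smallest that 2 against 2 libraries allow. The SR share averaged 0.230% ± 0.0118 (SD, n = 2) in wild-type cells. In homozygous cells it averaged 0.219% ± 0.0193 (SD, n = 2), with p = 0.667 by the same exact test. All 6 such tests had an adjusted p of 1. Counts on hnRNP genes were 6.14 times those on SR genes in the first homozygous library and 4.96 to 5.58 times in the other 5.

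The spread between the 2 libraries of a genotype reached 0.74 on the log2 scale (HNRNPLL in hemizygous cells). The largest fitted genotype difference was 0.52 in size (SRSF8), but it compares means of 2 libraries, so the values are unlike measures. Between single homozygous and wild-type libraries of the same number, SRSF7 differed by -1.04 in replicate 1 and by -0.003 in replicate 2. Over the 6 libraries the coefficient of variation had a median of 10.2% in the 31 genes (SR 11.5%, hnRNP 7.36%) and 13.9% over all genes, whose counts are lower. HNRNPA3 was the steadiest of the 31 at 2.63% and HNRNPLL the most variable at 25.3%. The first homozygous library was the highest of the 6 for 10 of the 31 genes (32.3%, against 14.7% of all genes), of which 9 were hnRNPs. It was the lowest for 5 (16.1%, against a similar 13.7% of all genes), of which 4 were SR proteins.

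Part of that spread went with the replicate number. A model with genotype and replicate number called HNRNPLL and SRSF2 lower in replicate 2, which is 2 of 31 genes (6.45%). The background was high: 20.5% of all genes were called in this comparison, 8.5% higher and 12% lower in replicate 2. HNRNPLL (chr2:38561969-38602928), which drives the exon skipping of CD45 in activated T cells, gave 84.1 and 54.9 CPM in wild-type, 87.3 and 52.3 in hemizygous and 65.7 and 49.0 in homozygous libraries. Replicate 2 was the lower in each genotype, by 0.59 on average (log2 difference -0.59, SE 0.09, edgeR adjusted p 0.0122). SRSF2 differed by -0.41 (SE 0.08, edgeR adjusted p 0.0207), and HNRNPU by -0.32 (SE 0.09, edgeR adjusted p 0.0522), which missed the threshold. Leaving out either hemizygous library ended both calls, and leaving out either wild-type library ended that of SRSF2 (edgeR adjusted p 0.0670 and 0.0731) and called HNRNPM beside HNRNPLL. Without the first or the second homozygous library the count was 10 (32.3%), against 38.7% and 38.6% of all genes in the same fits.

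For some genes of both families the gap between replicates had the opposite sign in homozygous cells, a difference that was not tested. The median log2 difference of replicate 2 from replicate 1 over the 12 SR genes was -0.22 in wild-type and -0.27 in hemizygous cells, but 0.07 in homozygous cells. For the 19 hnRNP genes it was -0.0006, 0.01 and -0.14, and over all genes it was within 0.01 of 0 in each. SRSF7 had gaps of -0.47, -0.44 and 0.57, SRSF3 of -0.20, -0.30 and 0.46, HNRNPDL of -0.41, -0.35 and 0.23 and SRSF6 of -0.36, -0.33 and 0.16. SRSF12 turned the same way, with -0.25, -0.11 and 0.26. HNRNPA0, HNRNPA1L3, HNRNPF, HNRNPH3, HNRNPUL1 and HNRNPUL2 turned from above 0 to below it in homozygous cells, HNRNPUL2 with 0.29, 0.30 and -0.12. SRSF1, SRSF2, SRSF4, SRSF8, SRSF10 and SRSF11, which are 6 of the 12, kept a single sign in all 3 genotypes. For SRSF4, SRSF8 and SRSF10 the homozygous gap was near 0, at 0.0002, -0.05 and -0.05. The direction was the same in all 3 genotypes for 14 of the 31 genes (45.2%), where the background was 58.2% of all genes. On the wild-type and hemizygous libraries alone, a fit chosen after the data were seen, 10 of the 31 genes (32.3%) were called where the background was 38.6% of all genes. Of the 10, 7 were SR proteins (SRSF2, SRSF3, SRSF4, SRSF6, SRSF7, SRSF8 and SRSF10), and the others were HNRNPDL, HNRNPLL and HNRNPUL2.

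**Figure D4:**
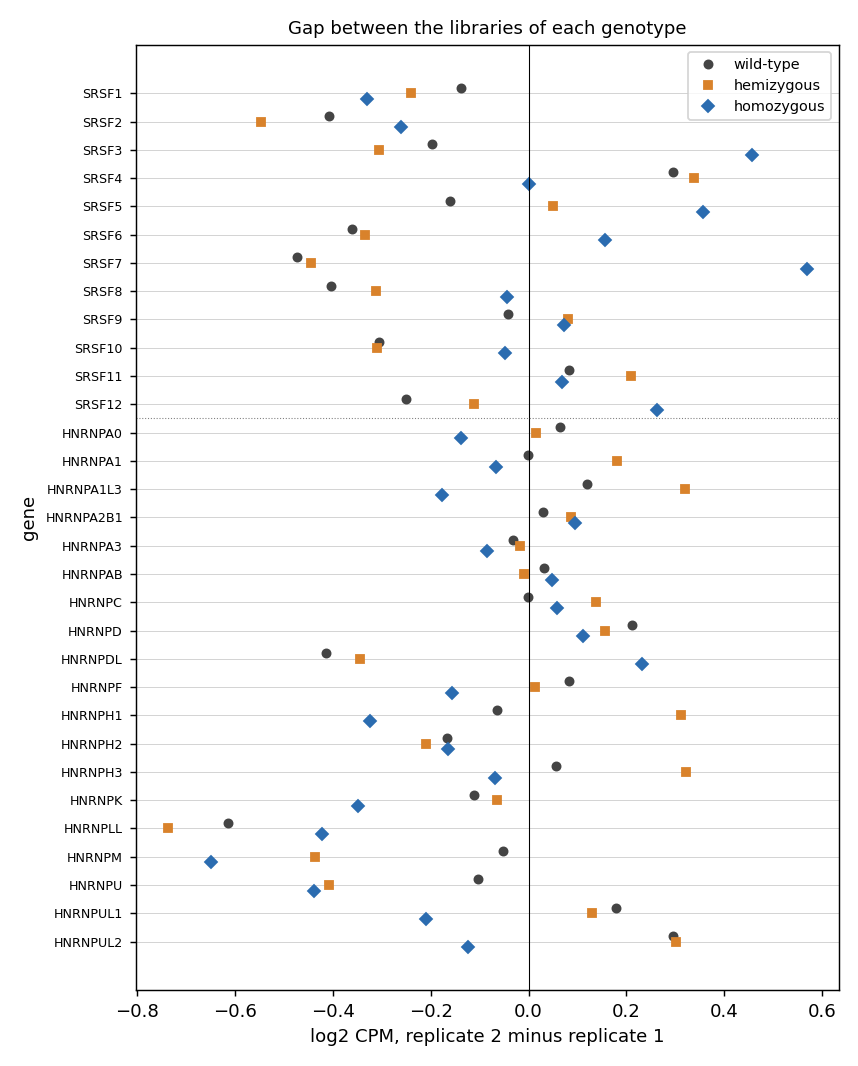
Log2 CPM of replicate 2 minus replicate 1 for each gene in each genotype (circle, wild-type; square, hemizygous; diamond, homozygous). Wild-type and hemizygous symbols mostly lie close together, while for some genes of both families, such as SRSF3, SRSF7, HNRNPDL and HNRNPUL2, the homozygous symbol lies on the other side of 0.

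Genes that act on or beside these proteins were taken from lists by function, and edgeR, DESeq2 and limma-voom called 0 of them in any genotype comparison. At an unadjusted p under 0.05 edgeR held 1, PTBP2, in homozygous against wild-type cells. Of 11 SR protein kinases and import factors, 9 were measured. CLK1, a kinase that phosphorylates SR proteins in the nucleus, gave 85.5 and 59.3 CPM in wild-type, 80.2 and 63.6 in hemizygous and 42.5 and 73.5 in homozygous libraries. CLK4 gave 30.3 and 25.0, 28.6 and 26.7, and 20.2 and 26.3 CPM. Both kinases were lowest in the first homozygous library, as SRSF3 and SRSF7 were. The list did not share this, since CLK3, SRPK2, DYRK1A and PPIG were highest in that library, CLK3 at 50.8 CPM. The median homozygous against wild-type log2 fold change of the kinase list was -0.06.

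All 23 SR-related proteins were measured, with a median of 0.08 in homozygous against wild-type cells. In the replicate comparison 9 of them (39.1%, against 20.5% of all genes) were called, 4 higher in replicate 2 (ACIN1, LUC7L, LUC7L2 and LUC7L3) and 5 lower (BCLAF1, SCAF11, SON, SREK1 and TRA2B). Of 17 hnRNPs that carry other names, 16 were measured, with a median of 0.10. PTBP2, the neuronal polypyrimidine tract protein, gave 60.3 and 64.8 CPM in wild-type, 70.3 and 78.2 in hemizygous and 93.1 and 80.0 in homozygous libraries. The 3 genotypes did not overlap for PTBP2, and its homozygous difference was 0.47 (SE 0.14, unadjusted p 0.0139), not called after adjustment (edgeR adjusted p 1.00).

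Of 42 core spliceosome genes 40 were measured, with a median homozygous against wild-type log2 fold change of 0.03. All 10 genes of nonsense-mediated decay, the pathway that degrades poison-exon transcripts, were measured, with a median of -0.03 and values from -0.22 to 0.11. Of 21 tissue-restricted splicing regulators 20 were measured, with a median of -0.09. MBNL2 stood lowest among them by p, at 5.6 and 3.1 CPM in wild-type and 1.6 and 2.4 in homozygous libraries. Its hemizygous libraries, at 6.3 and 2.4 CPM, overlapped the homozygous ones, and its lowest count was 73. In the replicate comparison only the SR-related list exceeded the 20.5% of all genes called. The core spliceosome list had 17.5% called, hnRNPs under other names 18.75% and tissue-restricted regulators 20%. Nonsense-mediated decay had 10%, and kinases and import factors 0%.

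Markers of the labelled cell type were present, and their summed level and those of other cell types differed between genotypes. All 10 pluripotency markers were measured, summing to 8609 and 8405 CPM in wild-type, 9992 and 8952 in hemizygous and 9017 and 8621 in homozygous libraries. Their median log2 fold change against wild-type was 0.15 in hemizygous cells (9 of 10 higher) and 0.07 in homozygous cells (6 of 10 higher), with 0 called. Of 10 fibroblast and stromal markers 7 were measured, summing to 1150 and 969 CPM in wild-type, 1094 and 895 in hemizygous and 794 and 864 in homozygous libraries. THY1 was the largest term in every library, at 420 and 468, 334 and 379, and 333 and 394 CPM. Their median homozygous against wild-type log2 fold change was -0.44, with 0 of 7 called and 1 at an unadjusted p under 0.05. COL3A1, DCN and LUM of that list were not analysed here. In wild-type and hemizygous cells the median gap of the 7 stromal markers between replicates was -0.63 and -0.60, and in homozygous cells 0.05, beside the SR medians given above. The gaps of THY1 were 0.16, 0.18 and 0.25 in wild-type, hemizygous and homozygous cells. Of 10 neural markers 7 were measured, summing to 445 and 433 CPM in the homozygous libraries and to 474 to 594 in the other 4. NES held most of that sum. The median log2 fold change against wild-type was 0.08 in homozygous cells (4 of 7 higher) and 0.24 in hemizygous cells (6 of 7 higher). At an unadjusted p under 0.05 edgeR held 2 and 3 of them, all higher in the mutants. DESeq2 called 1 of the 7 between hemizygous and wild-type cells, and edgeR called 0. Of 8 mesendoderm markers 2 were measured, summing to 260.2 and 277 CPM in wild-type and to 335 to 395 in the 4 mutant libraries. The homozygous libraries were thus lowest in the stromal sum and in the neural sum, which rests mostly on NES. The wild-type libraries were lowest in the mesendoderm sum, which rests mostly on KDR, and by a small margin in the pluripotency sum. The part of these lists in the values of the SR protein and hnRNP genes was not tested.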

How the data were processed

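The deposited table holds whole-number read counts per gene, made by the authors and not normalized; the genome build was hg38, per the submitters' processing notes. Not given in the sources used here are the aligner, counter, annotation, strand setting and any molecular identifiers, so overlapping genes and near copies are uncertain. Columns were tied to samples by their descriptions. Control IgG pull-downs were not used here.

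Counts were normalized with TMM and tested over all 16199 genes with the quasi-likelihood test of edgeR 4.0.16 (R 4.3.3), with a mean per genotype over 6 libraries. filterByExpr removed no gene, and calls needed a p under 0.05 after Benjamini-Hochberg adjustment. Standard errors are the size of a fold change over the root of its F statistic. The genes and lists were chosen with earlier results of these data known. Named genes were 8 well-known ones, the 3 with the smallest p per direction in each genotype comparison, 3 in the replicate comparison, and up to 3 per related list; others named with values were chosen after their values were seen. Alternatives were other scalings and filters, DESeq2 1.42.0, limma 3.58.1 (voom), only the groups compared, a replicate block, and each library left out. The fits were tested on simulated data. All 31 genes matched RefSeq; protein sequences were not used here.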

Additional observations from a re-analysis of the deposited data

Results flagged for a closer look

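SRSF9 was singled out because the mutant genotypes lay on opposite sides of wild-type in every library. Both hemizygous libraries (162 and 171 CPM) were below both wild-type libraries (178 and 173 CPM), and both homozygous libraries (182 and 191 CPM) were above them. The homozygous minus hemizygous log2 difference was 0.17 (SE 0.12), and edgeR gave p values of 0.212 before and 0.999 after adjustment, so the difference did not pass the test.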

How the results depend on the processing

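With 2 libraries per genotype, the unadjusted 95% intervals of these genes reached a median of about 0.38 on the log2 scale to either side. This is not a limit above which differences were called. After adjustment over all genes larger ones were not called either, such as that of SRSF8 between homozygous and wild-type cells, at -0.52. The count of these genes called in the 3 genotype comparisons was 0 under every alternative run, leave-one-out fits included. A replicate block also left it at 0 in each, with 1 of all genes called between hemizygous and wild-type cells, 0 between homozygous and wild-type cells and 1 between the mutants. The labels do not say what a replicate number stands for, and 2 numbers are too few to settle a pairing, but same-numbered libraries deviated together over all genes: the correlation of their deviations was 0.74, 0.35 and 0.47 for the pairs wild-type and hemizygous, wild-type and homozygous, and hemizygous and homozygous, and over the 31 genes 0.85, -0.14 and 0.10. The median log2 fold change of homozygous against hemizygous cells was 0.041 with upper-quartile factors, and that of replicate 2 against replicate 1 was 0.054 with upper-quartile factors and 0.048 with library size only, against -0.02 with TMM. In the replicate comparison DESeq2 called 4 of these genes (12.9%). Its share over all genes is not given here, so the 4 cannot be set against a background. On the wild-type and hemizygous libraries only, 10 were called (32.3%, against 38.6% of all genes). The cause of these shifts was not tested. Leaving out a homozygous library in the replicate comparison in effect repeated the fit on the wild-type and hemizygous libraries only. With each library left out in turn, medians ranged from -0.0035 to 0.052 in hemizygous against wild-type cells. The ranges were -0.0085 to 0.061 in homozygous against wild-type and -0.047 to 0.045 in homozygous against hemizygous cells. The same fits turned the sign of some uncalled differences. In hemizygous against wild-type cells the ranges were -0.29 to 0.042 for HNRNPA1L3, -0.0035 to 0.23 for SRSF1, -0.038 to 0.33 for SRSF6 and -0.34 to 0.060 for SRSF8. In homozygous against wild-type cells they were -0.059 to 0.29 for HNRNPK, -0.20 to 0.24 for HNRNPU and -0.22 to 0.18 for SRSF2. Of the other alternatives for single genes, 238 kept their direction and side of the threshold, and 2, both for HNRNPU in the replicate comparison (DESeq2 and limma-voom), passed it. The 6 differences in family share between genotypes kept their sign without mitochondrial rows.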
